A study of Mus musculus with 13 samples.

Results

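G2 and mitosis phase crypt cells are the dividing cells of the colon epithelium that carry RNA for entering and completing mitosis. A cell was counted as one when at least 500 genes were detected in it, when the goblet cell genes Muc2, Fcgbp and Zg16 summed to under 30 per 10000 UMI (unique molecule counts), and when it held at least 5 UMI summed over Mki67, Top2a, Cenpf, Cdk1, Birc5, Ccnb1 and Ube2c. Of 4183 cells in all, 214 met this rule. The first 2 criteria alone left 3369 eligible cells, and the 3155 of these that lacked the 5 UMI are called the other eligible cells. The members were chosen on these 7 genes, so the levels of all genes in them are given as a description, with no test.

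The cells came from the whole colon of C57BL/6J mice, either wild type mice treated with an antibiotic or mice kept germ-free. The sort took EPCAM-positive, CD45-negative epithelial cells, with CD44-positive (proliferative) and CD44-negative (differentiated) cells in equal numbers, so the share of dividing cells is partly set by the sort. The labels name no agent, age or number of mice. Cells of a condition were pooled before sorting and the labels place the conditions in separate batches, so each condition is 1 pool, condition and batch cannot be told apart, and no p-value is given. Intervals are at the 95% level and cover counting error only. Cell names carry a number that splits the antibiotic cells into sets 1, 2 and 3 and the germ-free cells into sets 3 and 4. What these numbers stand for was not tested. The sets are used to show how far a value varies within a condition, and as part of the limit for calling a gene different between the pools. They are not treated as replicates of a condition.

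Antibiotic sets shared cell barcodes. Sets 1 and 2 had 315 barcodes in common, sets 2 and 3 had 501 and sets 1 and 3 had 48, with a median ratio of the deeper to the shallower copy of 16.1, 9.73 and 27.8. No barcode was shared with or between germ-free sets. Among the antibiotic members, 18 were the shallower copy of a barcode whose deeper copy was also a member, which leaves 161 distinct barcodes. Results without the shallower copies are given beside the counts they touch. Scrublet marked 23 of all cells as doublets (0.55%), of which 1 was a member.

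Crypt cells divide in the lower part of the crypt and then stop as they move up and become absorptive colonocytes or goblet cells. After DNA replication, cyclin-dependent kinase 1 with its B cyclins drives entry into mitosis, condensins compact the chromosomes, kinetochores tie them to the spindle, and the anaphase-promoting complex ends mitosis by marking cyclins and securin for destruction. Many genes of this programme are held off in resting cells by the DREAM complex and switched on late in the cycle by B-MYB and FOXM1. Their promoters often hold 2 elements, the cell cycle genes homology region (CHR) and the CCAAT box.

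Promoters of choosing genes are shown because the members were picked on the RNA these sequences drive. The 4 shown are those with TTTGAA in the run. Each run is the 150 bases before the gene's start, 5′ to 3′ on the gene's strand, from RefSeq on GRCm38.p6. TTTGAA and CCAAT on either strand are in capitals. TTTGAA was the only sequence searched for as the CHR, so a promoter without it is not shown to lack a CHR. The reverse strand forms read TTCAAA and ATTGG, and no matches overlapped in these runs.
Mki67, chr7:135716380-135716529, minus strand: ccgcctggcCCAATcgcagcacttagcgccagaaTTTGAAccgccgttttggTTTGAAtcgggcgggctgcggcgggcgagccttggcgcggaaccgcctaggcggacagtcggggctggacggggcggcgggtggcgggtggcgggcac
Cdk1, chr10:69352913-69353062, minus strand: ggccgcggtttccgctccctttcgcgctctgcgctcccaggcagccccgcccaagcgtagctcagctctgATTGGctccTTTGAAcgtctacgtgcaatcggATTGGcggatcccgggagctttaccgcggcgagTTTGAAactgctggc
Top2a, chr11:99024190-99024339, minus strand: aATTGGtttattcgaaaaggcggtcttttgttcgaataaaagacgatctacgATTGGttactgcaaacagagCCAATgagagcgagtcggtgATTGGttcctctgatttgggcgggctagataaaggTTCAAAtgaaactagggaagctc
Ube2c, chr2:164769779-164769928, plus strand: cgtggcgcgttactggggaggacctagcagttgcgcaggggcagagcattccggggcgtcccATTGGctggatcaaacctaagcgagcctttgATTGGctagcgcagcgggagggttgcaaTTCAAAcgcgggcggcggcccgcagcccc

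Over the whole window of 250 bases before to 50 after the start, 5 of the 7 choosing genes held TTTGAA on either strand. Birc5, an inhibitor of apoptosis that also serves the chromosomal passenger complex, and Ccnb1, the mitotic cyclin B1, held none. Cenpf, a kinetochore and nuclear matrix protein, held it only when the bases after the start were counted. Over the choosing genes and the 4 mitotic lists described next, 51 of the 79 genes matched in the RefSeq table held TTTGAA (64.6%), against 20.2% of all 27025 genes in it. With the 250 bases before the start alone these shares were 39.2% and 18.3%. CCAAT was found in 57 of the 79 (72.2%), against 41.1% of all genes. Of 27 S phase genes matched, 3 held TTTGAA, and of 13 Wnt and stem cell genes and 13 colonocyte genes matched, none did. A match describes these letters in this window and is not a bound site.

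The members made up 6.44% of eligible antibiotic cells (179 of 2780, exact Clopper-Pearson interval 5.55 to 7.42) and 5.94% of eligible germ-free cells (35 of 589, 4.17 to 8.17). The intervals overlapped. By set the shares were 7.31% (48 cells), 6.67% (61 cells) and 5.79% (70 cells) in antibiotic sets 1, 2 and 3, and 3.31% (6 cells) and 7.11% (29 cells) in germ-free sets 3 and 4. Germ-free set 3 was therefore the lowest, and germ-free set 4 lay among the antibiotic sets. Without the shallower copies the antibiotic share was 7.07%.

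Depth bears on a rule that counts UMI. Antibiotic members had a median of 10269 UMI per cell and germ-free members 5757, and the medians of the other eligible cells were 8503 and 3404. When every eligible cell was thinned to 2000 UMI and 2 UMI of the choosing genes were asked for, the shares were 6.03% (5.11 to 7.06) and 7.76% (5.4 to 10.7), the germ-free value now above the antibiotic one. With 5 UMI asked for after thinning they were 2.89% and 1.65%. Thinning left out 391 antibiotic and 164 germ-free cells under 2000 UMI. A difference in the share of G2 and mitosis phase cells between the pools was not detectable at this depth.

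**Figure D1:**
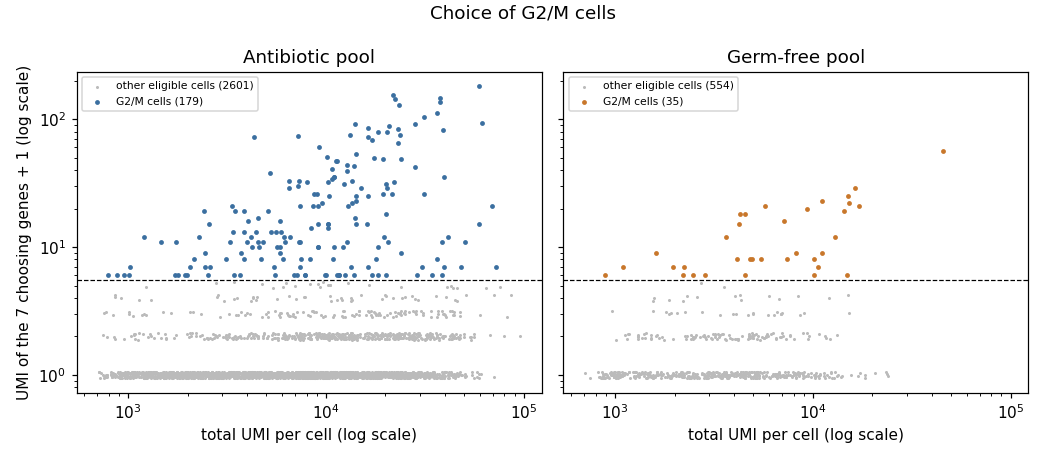
Each point is an eligible cell, with its total UMI across and its UMI of the 7 choosing genes plus 1 upwards, both on log scales, for the antibiotic and germ-free pools. The dashed line is the threshold of 5 UMI, coloured points are the 179 and 35 members, and grey points are the 2601 and 554 other eligible cells, most of them with no UMI of these genes.

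The threshold did not fall in a clear gap of the distribution. From 3 to 7 UMI of the 7 genes the eligible cells numbered 45, 24, 29, 12 and 10 in the antibiotic pool. In the germ-free pool they numbered 14, 2, 7, 4 and 6. No UMI of the 7 genes was found in 1967 antibiotic and 407 germ-free eligible cells. Just outside the threshold, 69 antibiotic and 16 germ-free cells held 3 or 4 UMI, and just inside it 41 and 11 held 5 or 6. In the antibiotic pool, G2/M regulators summed to 284 CPM (UMI scaled to 1000000 per group) in the cells just outside and 465 CPM in those just inside, against 157 CPM in cells with none and 1719 CPM in the 71 cells with 20 or more. Car1, the carbonic anhydrase of mature colonocytes, was at 4439 CPM just outside, 3253 CPM just inside, 294 CPM in cells with 7 to 19 UMI and 187 CPM at 20 or more. Spink4, a secretory cell product, stood at 668 CPM just outside and 97.1 CPM just inside. A single cell of 72626 UMI held 1128 of the Car1 UMI just inside, where Car1 was at 1328 CPM without it. Germ-free members ran the other way, with Car1 at 518 CPM at 5 or 6 UMI, 878 CPM at 7 to 19 and 3678 CPM at 20 or more, or 968 CPM in the last without its top cell.

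Mki67, which coats mitotic chromosomes and marks cycling cells, was found in 95.0% of antibiotic and 91.4% of germ-free members and gave 36.5% and 35.0% of the choosing UMI. Top2a, the topoisomerase that untangles replicated DNA, was found in 83.8% and 68.6%, and Cenpf in 72.1% and 77.1%. Ccnb1, the most mitotic of the choosing genes, was found in only 19% of antibiotic and 28.6% of germ-free members. Markers of other cell types were low. The floor of counting is 1.18 CPM for 3 counts in antibiotic and 10.0 CPM in germ-free members, and some of these lists lay above it. The immune list summed to 1.96 and 0 CPM with 6 of its 8 genes, Ptprc among them, at 0 UMI. The stromal and endothelial list summed to 3.53 and 3.35 CPM with 5 of 7 genes at 0 UMI, the tuft list to 7.06 and 0 CPM, and the enteroendocrine list to 5.89 and 20.1 CPM. In the same order, these lists summed to 6.23, 3.85, 26.0 and 8.9 CPM in the other eligible antibiotic cells. In the other eligible germ-free cells they summed to 6.22, 3.32, 10.8 and 31.5 CPM.

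Against the other eligible cells, 895 of the 10771 genes with enough UMI (at least 100 over these cells) were at least 2-fold higher in the members of both conditions, or 8.31%. A further 459, or 4.26%, were at least 2-fold lower in both. No floor was set for germ-free members alone, so both counts can include genes under 10.0 CPM there. For such genes a 2-fold difference in that pool may not be shown, as for 6 interferon-response genes among the 459. Of the 78 such genes on 4 lists of mitotic proteins, 72 were higher in both and none was lower, with a median log2 ratio of 4.06 in antibiotic and 2.81 in germ-free cells, against 0.31 and 0.14 over all genes. The choosing genes are of the same programme, so these counts follow in part from the rule. Without the shallower copies 896 genes were higher and 455 lower. After thinning 312 were higher, out of fewer genes with enough UMI, and 373 lower.

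Of 21 regulators of G2 and mitosis, 19 were higher in both conditions. Bub1b, a spindle checkpoint kinase, was at 69.1 CPM in antibiotic members against 1.72 CPM in other cells, and at 60.3 against 3.32 CPM in germ-free cells. Plk1, the kinase of mitotic entry, was at 27.5 against 1.03 CPM and at 53.6 against 2.90 CPM. Cks2, a subunit of cyclin-dependent kinases, was more broadly present, at 187 against 52.9 CPM and 181 against 83.3 CPM. The 2 regulators not past the limit in both were Wee1, the kinase that holds back CDK1, which was 4.70-fold higher in antibiotic and 1.85-fold in germ-free members, and Pttg1 (securin). Pttg1 was at 22.8 against 36.3 CPM and 20.1 against 36.9 CPM, below its level in the other eligible cells in both pools.

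Among chromosome proteins, 18 of 19 were higher in both. Hmgb2, a DNA-bending protein of dividing cells, was at 650 CPM against 85.8 CPM in antibiotic and 710 against 147 CPM in germ-free cells. Smc2 and Smc4, the core of condensin, were at 147 and 215 CPM in antibiotic members and 104 and 154 CPM in germ-free members. Of 14 kinetochore genes 13 were higher in both, among them Cenpe, the motor that brings chromosomes to the spindle equator, at 201 against 3.35 CPM and 134 against 10.4 CPM. The exception was Bub3, at 50.2 against 17 CPM and 40.2 against 23.6 CPM.

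Of 24 spindle and cytokinesis genes 22 were higher in both. Prc1, which bundles the central spindle, was at 182 against 2.98 CPM and 137 against 5.80 CPM. Tubb5, a beta tubulin, was 13.1-fold and 8.23-fold higher, while another beta tubulin, Tubb4b, was at 260 against 252 CPM and 231 against 196 CPM. Genes outside the lists with the largest ratios in the weaker condition included Esco2, a cohesin acetyltransferase of S phase, Cit, the citron kinase of cytokinesis, and Cdca3, a trigger of mitotic entry. In the same group were Diaph3, Rad51b, Slfn9, Pbx3, the unnamed locus Gm42047 and 3 histone genes.

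**Figure D2:**
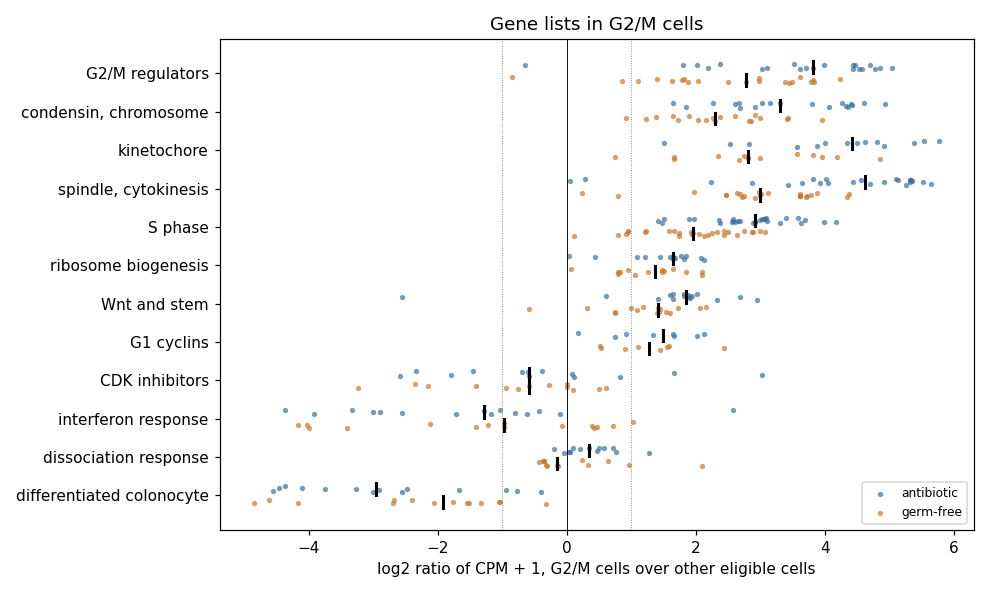
Each point is a gene of the named list, at its log2 ratio of CPM + 1 between G2 and mitosis phase cells and other eligible cells of the same condition (blue, antibiotic; orange, germ-free), with a black bar at the list's median and dotted lines at 2-fold. The 4 mitotic lists lie farthest to the right, S phase genes next, and differentiated colonocyte genes farthest to the left, with antibiotic medians of 4.63 for spindle and -2.96 for colonocyte genes.

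The label of G2 and mitosis covers only part of what these cells carried. Of 29 S phase genes with enough UMI, 24 were higher in both conditions, with median log2 ratios of 2.91 and 1.96. Pcna, the replication clamp, was at 110 against 39.3 CPM in antibiotic and 144 against 44.8 CPM in germ-free cells. Pola1, the catalytic subunit of the priming polymerase, was at 237 against 19 CPM and 107 against 20.7 CPM. At least 2 UMI of the S phase list were found in 86.0% of antibiotic members (80.1 to 90.8) and 82.9% of germ-free members (66.4 to 93.4). Cells with at least 5 UMI of Krt20, a keratin of colonocytes that have left the cycle, passed the same mark in 65.2% of antibiotic and 24.1% of germ-free cases, at median depths of 18892 and 6371 UMI. Thinned to 2000 UMI, the mark was met by 56.3% and 58.1% of members, 8.33% and 11.7% of other eligible cells, and 3.56% of antibiotic Krt20 cells. Of the 58 germ-free Krt20 cells none met it after thinning, which allows a share of up to 6.16% (upper exact limit).

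The members were therefore ranked by the density of S phase UMI and split into 3 tertiles of 72, 71 and 71 cells. S phase UMI per 10000 ran from 0 to 5.04 in the lowest tertile, from 5.12 to 18.9 in the middle and from 19.3 to 67.8 in the highest. Median depth was alike, at 9123, 9517 and 10202 UMI. Top2a was at 168, 713 and 878 CPM from the lowest to the highest tertile, and Cdk1 at 26.8, 105 and 110 CPM. Cenpf stood at 297, 447 and 164 CPM and Ccnb1 at 32.8, 49.0 and 23.3 CPM. Cdc20, the activator of the anaphase-promoting complex, was at 43.7, 53.5 and 30.7 CPM. As deposited, Cenpf, Ccnb1 and Cdc20 were lowest in the cells richest in S phase RNA and Top2a was highest there. The mitotic lists as a whole did not fall with S phase density and were lowest in the lowest tertile. G2/M regulators summed to 671, 1283 and 1465 CPM from the lowest to the highest tertile. Kinetochore genes summed to 670, 1449 and 1643 CPM and spindle genes to 1641, 3772 and 4349 CPM. After thinning Cdc20 was at 68.2, 53.0 and 53.0 CPM, so its upper tertiles tied. The order of Cenpf and Top2a was the same in antibiotic cells alone (286, 448 and 144 CPM for Cenpf) and after thinning (432, 568 and 136 CPM). After thinning Ccnb1 was at 37.9, 15.2 and 7.58 CPM, the last being the value of 1 UMI, and no order is read from it.

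**Figure D3:**
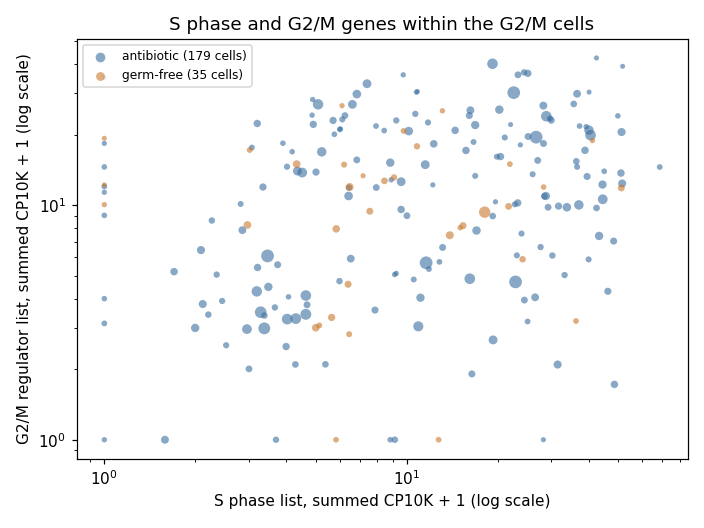
Each point is 1 of the 214 members, with the summed S phase list across and the summed G2/M regulator list upwards, both in UMI per 10000 plus 1 on log scales. Point size grows with total UMI, blue is antibiotic and orange germ-free, and the cells fill a continuous range from no S phase UMI to 67.8 per 10000 with no gap between groups.

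Hist1h2ap, a histone gene, was at 43.7, 492 and 690 CPM in the 3 tertiles and Hist1h1b, a linker histone, at 39.8, 239 and 355 CPM. Uhrf1, which keeps DNA methylation through replication, had no UMI in the lowest tertile and was at 40.1 and 99.7 CPM in the others. Germ-free members were spread over the tertiles as 11, 17 and 7 cells and antibiotic members as 61, 54 and 64. The highest tertile held 20% of germ-free members (8.44 to 36.9) and 35.8% of antibiotic members (28.7 to 43.2), with overlapping intervals.

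For a comparison with cells in S phase, eligible cells with at least 5 UMI of the S phase list and under 5 of the choosing genes were taken. In the antibiotic pool these 408 cells were not a clean S phase class, with a median of 23960.5 UMI and Car1 at 12227 CPM. A second class, defined after the data were seen, asked for at least 3 such UMI at 15 or more per 10000. Its 85 antibiotic and 16 germ-free cells had Car1 at 233 and 815 CPM, at median depths of 3736 and 2762 UMI. Against this denser class, 126 genes passed the 2-fold limit upwards and 34 downwards in the members of both conditions. Spindle genes summed to 3305 CPM in antibiotic members and 999 CPM in the dense S phase cells, and kinetochore genes to 1290 and 390 CPM. The Wnt and stem list ran the other way, at 1971 CPM in members and 3161 CPM in dense S phase cells. Hist1h2ap was at 439 CPM in antibiotic members and only 28.3 CPM in the dense S phase cells.

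Stem and Wnt genes were higher in members than in other eligible cells. Of 16 with enough UMI, 10 were higher in both conditions, and the summed list stood at 1971 against 772 CPM in antibiotic cells, and it was 1.35 and 1.19 higher on the log2 scale in the antibiotic and germ-free pools. Slc12a2, a chloride transporter of lower crypt cells, was at 357 against 70.4 CPM and 485 against 146 CPM. Ephb2, which keeps crypt cells in position, was at 165 against 44.4 CPM and 134 against 50.2 CPM. Lgr5, the receptor that marks crypt base stem cells, was at 62.8, 20.8 and 75.8 CPM in antibiotic sets 1, 2 and 3, while germ-free values were 61.2 and 14.2 CPM in sets 3 and 4. The 61.2 CPM in germ-free set 3 was a single UMI. A Lgr5 UMI was found in 15.1% of antibiotic members (10.2 to 21.2) and 8.57% of germ-free members (1.80 to 23.1), against 1.70% and 1.72% of Krt20 cells. Most members thus showed no Lgr5 UMI at this depth. By tertile of S phase density Lgr5 was at 12.9, 31.2 and 99.7 CPM, and after thinning at 37.9, 15.2 and 114 CPM, so the highest tertile led in both.

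Of 14 genes of ribosome biogenesis 9 were higher in both, and Ncl (nucleolin) was at 421 against 138 CPM and 529 against 221 CPM. Of 8 G1 cyclins and partners 4 were higher in both. Ccnd1, a D cyclin that starts the cycle, was at 71.4 against 21.9 CPM and 80.4 against 14.1 CPM, and Cdk6, a kinase it activates, at 142 against 55.8 CPM and 218 against 78.8 CPM. Of 13 CDK inhibitors and genes of quiescence 3 were lower in both and none was higher. Cdkn1a (p21), which halts the cycle, was at 33.0 against 203 CPM and 33.5 against 152 CPM, and Cdkn2b and Ccng2 were the others.

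Of 14 differentiated colonocyte genes 11 were lower in both conditions. Krt20 was at 23.5 against 540 CPM and 16.7 against 319 CPM, a 22.9-fold and 19.1-fold difference. Car1 was at 861 against 8321 CPM and 1995 against 4141 CPM, but a single cell gave 51.4% of its UMI in antibiotic members and another 64.8% in germ-free members. Guca2a, the guanylin that controls fluid secretion, was at 128 against 2648 CPM and 331 against 2135 CPM. Outside that list, Emp1, a membrane protein, and Mxd1, a transcription repressor of differentiating cells, both chosen after their values were seen, were at 46.7 and 30.2 CPM in antibiotic members against 820 and 261 CPM. Of 15 interferon-response genes 6 passed the limit downwards in both, but germ-free members were at or under the floor of 10.0 CPM for all 6 and the other germ-free cells under 2-fold of it, so a 2-fold difference is not shown in that pool. Irf7, a factor of that response, was at 10.6 against 92.3 CPM in antibiotic cells. Goblet markers, on which the rule set an upper limit, were lower or higher in both for 0 of 7, and the same held for 7 secretory progenitor genes.

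Between the pools, 2084 genes were ranked, those with at least 100 UMI over the members and at least 100 CPM in the higher condition. Germ-free members exceeded 2-fold for 55 of these (2.64%) and lay under the same limit for 102 (4.89%), with the sets of the conditions apart, meaning that both germ-free sets lay outside all 3 antibiotic sets on the same side. These are the genes called higher or lower from here on. Sets were apart at any size for 37.1% of ranked genes. Germ-free set 3 held only 6 members and 16343 UMI, so 1 UMI there is 61.2 CPM. Of the 102 lower genes, 82 had no UMI or 1 UMI in it. Without it 69 genes were higher and 108 lower, and without germ-free set 4 the counts were 673 and 577. Mitochondrial genes took 9.68% of UMI in antibiotic and 16.8% in germ-free members, and their part in the differences was not tested.

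None of the 55 higher genes met the limit under all 14 other settings tried, and 14 of the 102 lower ones did. Among members with 8 or more choosing UMI, 3 of the 55 were called again, and after thinning 4. The first of these settings left a single cell, of 1619 UMI, in germ-free set 3. A higher call then needed a UMI of the gene in that cell, while a lower call could be met with none. Thinning left fewer UMI to reach the floor for ranking. A call lost under either setting therefore does not by itself show a smaller difference. Without the shallower copies all 55 higher and 98 of the 102 lower genes were called again. In the other eligible cells, 14 of the 55 and 18 of the 102 were also 2-fold apart in the same direction, so most of the calls were not matched there at that size.

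**Figure D4:**
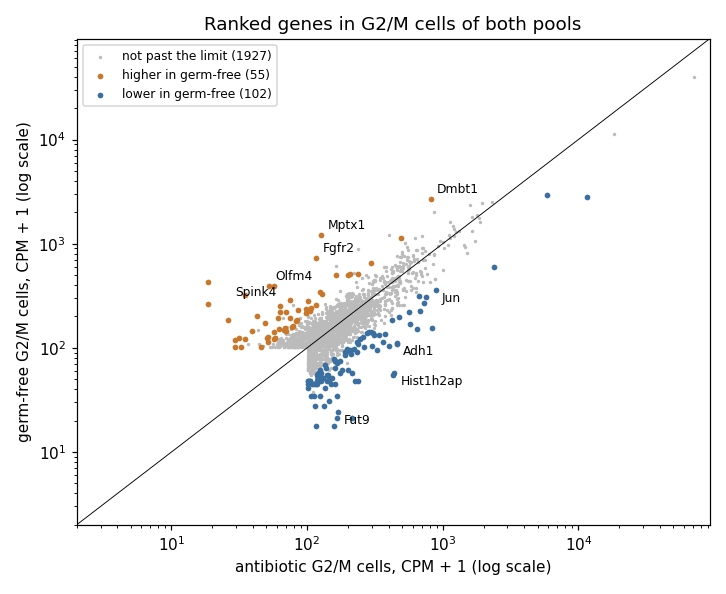
Each point is a ranked gene, at its CPM + 1 in antibiotic (across) and germ-free (upwards) G2 and mitosis phase cells on log scales, with the line of equality. Orange marks the 55 genes called higher and blue the 102 called lower in germ-free members, with 1927 genes in grey.

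Of the 30 mitotic genes ranked, none was called higher and 3 were called lower in germ-free members: Cenpp, a kinetochore protein, Kif15, a spindle motor, and Nusap1, which stabilises spindle microtubules. Over all 87 listed genes, 76 were below and 11 above their antibiotic level, with a median log2 ratio of -0.58, against -0.11 over all genes. Of all 9662 measured genes, 5514 were below. The direction of the list sums varied with the number of choosing UMI. At 5 or 6 UMI the G2/M regulators summed to 814 CPM in germ-free and 465 CPM in antibiotic members, and spindle genes to 2369 and 1043 CPM. Median depth there was 2472 UMI in germ-free and 7837 UMI in antibiotic members, so equal UMI meant a higher density in germ-free cells. At 7 to 19 UMI, with depths of 5499 and 5964 UMI, the regulators were at 802 and 633 CPM, and kinetochore genes at 768 and 824 CPM. At 20 or more, with 7 and 71 cells and depths of 15199 and 14256 UMI, the regulators were at 912 and 1719 CPM. Kinetochore genes were there at 777 and 1909 CPM and spindle genes at 2743 and 5020 CPM, lower in germ-free members. Germ-free set 3 lay above all antibiotic sets for the regulators, at 1346 CPM. Mki67 was at 1131, 563 and 563 CPM in antibiotic sets 1, 2 and 3, while germ-free values were 795 and 496 CPM in sets 3 and 4, which overlap. Top2a was at 676, 595 and 554 CPM and at 122 and 393 CPM, both germ-free sets below all antibiotic sets, though not 2-fold in total (598 against 378 CPM). Cenpf was at 453, 268 and 227 CPM and at 673 and 333 CPM, which overlap. Of the 3 S phase genes ranked, Pola1 and Lig1, the ligase that joins replicated fragments, were called lower and Pcna was not.

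Hist1h2ap (chromosome 13, 21833026 to 21833507) was at 87.2, 562 and 521 CPM in antibiotic sets 1, 2 and 3, while germ-free values were 0 and 60.2 CPM in sets 3 and 4. The germ-free sets lay below all antibiotic sets, and antibiotic set 1 lay nearer to them than to its own condition. The pools differed 7.72-fold (conditional binomial interval 4.8 to 13.3), with 103 of 179 and 8 of 35 members holding a UMI. It met the limit under all 14 settings, with a log2 ratio of -2.45 after thinning and -2.85 without germ-free set 3. Hist1h2ae, at 212 against 20.1 CPM, was also lower. Of 19 histone cluster genes with at least 100 UMI in members, grouped after their values were seen, 18 were below their antibiotic level, with a median log2 ratio of -1.59. Of all 9662 genes measured at 20 UMI or more, 5514 were below. Only 7 of the 19 were ranked, and 3 of these were called lower, against 4.89% of all ranked genes. In 16 of the 19, antibiotic set 1 was the lowest of the antibiotic sets. Close histone paralogs can share reads, and the sources give no account of how such reads were counted.

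Of 10 ranked genes of the dissociation response, which tissue handling itself can induce, 5 were called lower in germ-free members and none higher, against 4.89% called lower over all ranked genes. Of all 13 on the list, 11 lay below and 2 above their antibiotic level, against 5514 below of all 9662 measured genes. Jun, a subunit of the AP-1 factor, was at 898, 863 and 912 CPM in antibiotic sets and 306 and 365 CPM in germ-free sets, with no overlap and a 2.46-fold difference (2.03 to 3.01). Fosb was at 420, 287 and 412 CPM and at 61.2 and 117 CPM, and Jund at 486, 625 and 575 CPM and at 122 and 170 CPM. These 3 genes met the limit under all 14 settings. Fos, at 880 against 455 CPM, and Atf3, at 876 against 455 CPM, had sets apart but did not reach 2-fold. In other eligible cells the log2 ratio of Jun was -0.84 and that of Jund -1.19. The labels place the pools in separate batches, and the part of handling in this was not tested.

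Several genes linked to region or mucosal chemistry stood apart. Adh1, an alcohol dehydrogenase that also acts on retinol (chromosome 3, 138260991 to 138290698), was at 375, 466 and 501 CPM in antibiotic sets and 61.2 and 113 CPM in germ-free sets. The groups did not overlap, the difference was 4.15-fold (2.94 to 6.06), and the limit was met under all 14 settings. In the other eligible cells Adh1 was at 230 and 214 CPM, so members lay above other cells in the antibiotic pool and below them in the germ-free pool. Fut9, a fucosyltransferase (chromosome 4, 25609332 to 25800244), was at 228, 113 and 188 CPM and at 61.2 and 21.3 CPM, a 7.13-fold difference (3.43 to 17.8). Its germ-free total was 7 UMI. Fut9 was no longer called after thinning, where its log2 ratio was -2.09, or with 8 choosing UMI asked for, where it was -5.07. Hoxb13, a homeobox factor of the distal gut, was at 66.2, 164 and 119 CPM and at 61.2 and 46.0 CPM, where antibiotic set 1 and germ-free set 3 nearly met. Its log2 ratio of -1.40 moved to -0.37 after thinning.

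The regional genes were also summed as lists. The proximal list summed to 1055 CPM in the antibiotic pool and 984 CPM in germ-free members, a log2 ratio of -0.10 that turned to 0.12 with 8 choosing UMI asked for and 0.10 after thinning. The distal list summed to 921 and 549 CPM, and its log2 ratio of -0.75 moved to -0.21 after thinning, to -1.09 with 8 choosing UMI and to -2.91 without germ-free set 4. Both lists were small, with 7 and 5 genes measured at 20 UMI or more. Proximal genes went both ways, with 4 above and 3 below their antibiotic level and a median log2 ratio of 0.52. Of 5 ranked proximal genes, Adh1 and Fut9 were called lower, and Fabp2 was called higher, in 13 of 14 settings. Over all ranked genes, 2.64% were called higher and 4.89% lower. Of the distal genes, 1 lay above and 4 below, with a median log2 ratio of -0.73.

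The antibiotic members were grouped by whether they held a UMI of Fut9 and of Hoxb13. A UMI of both was found in 43 cells, of Fut9 alone in 33, of Hoxb13 alone in 26 and of neither in 77, at median depths of 18451, 10094, 14977 and 6242 UMI. The cells with neither were the shallowest and those with both the deepest, so these numbers are in part a matter of depth. Lgr5 was at 245 CPM in the cells with Fut9 alone, against 18.5 CPM with both, 6.48 CPM with Hoxb13 alone and 31.3 CPM with neither. The 245 CPM rested on 85 UMI in 8 of the 33 cells. Sycn, a secretory granule protein on the distal list, ran otherwise, at 1571 CPM with both, 298 CPM with Hoxb13 alone and 187 CPM with Fut9 alone. S phase genes summed to 2609 CPM with Fut9 alone and 907 CPM with Hoxb13 alone. Fut9 was on the proximal list, yet 43 of its 76 positive cells also held Hoxb13. In members as a whole a Fut9 UMI was found in 42.5% of antibiotic cells, against 2.12% of Krt20 cells. The germ-free members held too few such cells, 2, 2, 5 and 26 in the same order, for a comparison.

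Among genes called higher in germ-free members, Olfm4, a secreted marker of intestinal stem and crypt base cells (chromosome 14, 79984081 to 80023139), was at 24.4, 108 and 9.34 CPM in antibiotic sets and 1163 and 347 CPM in germ-free sets. The sets did not overlap and the difference was 7.56-fold (5.85 to 9.77), but a single cell gave 54.5% of the antibiotic UMI and another 39.3% of the germ-free UMI. Its log2 ratio ran from 2.32 to 4.62 over the 14 settings and was 2.76 in the other eligible cells. Olfm4 was not called in 2 of the settings, with 8 choosing UMI (log2 ratio 2.92) and after thinning (3.2). Dmbt1, a scavenger protein of the mucosal surface (chromosome 7, 131032053 to 131121630), was at 784, 815 and 843 CPM and at 2264 and 2685 CPM, a 3.25-fold difference (2.99 to 3.53). It was found in 138 of 179 and 31 of 35 members and met the limit in 13 of 14 settings, the exception being 8 choosing UMI. Its log2 ratio was 1.97 there, with a single cell left in germ-free set 3. Fgfr2, a receptor for fibroblast growth factors, was at 193, 87.0 and 99.7 CPM and at 428 and 747 CPM, in 98 of 179 and 31 of 35 members. It met the limit in 12 of 14 settings, but not with 8 choosing UMI or after thinning. Prom1, a membrane protein named after its values were seen, was at 54.0, 38.6 and 28.0 CPM and at 122 and 145 CPM. Prom1 met the limit in 10 of 14 settings. It was lost with 8 choosing UMI, after thinning, without cells over 15% mitochondrial and without germ-free set 4. For Olfm4, Fgfr2 and Prom1 alike, the first of these settings left a single cell in germ-free set 3, and thinning left fewer UMI. Unlike Olfm4, Prom1 stood at a like level in the other eligible cells of the pools (229 and 217 CPM).

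**Figure D5:**
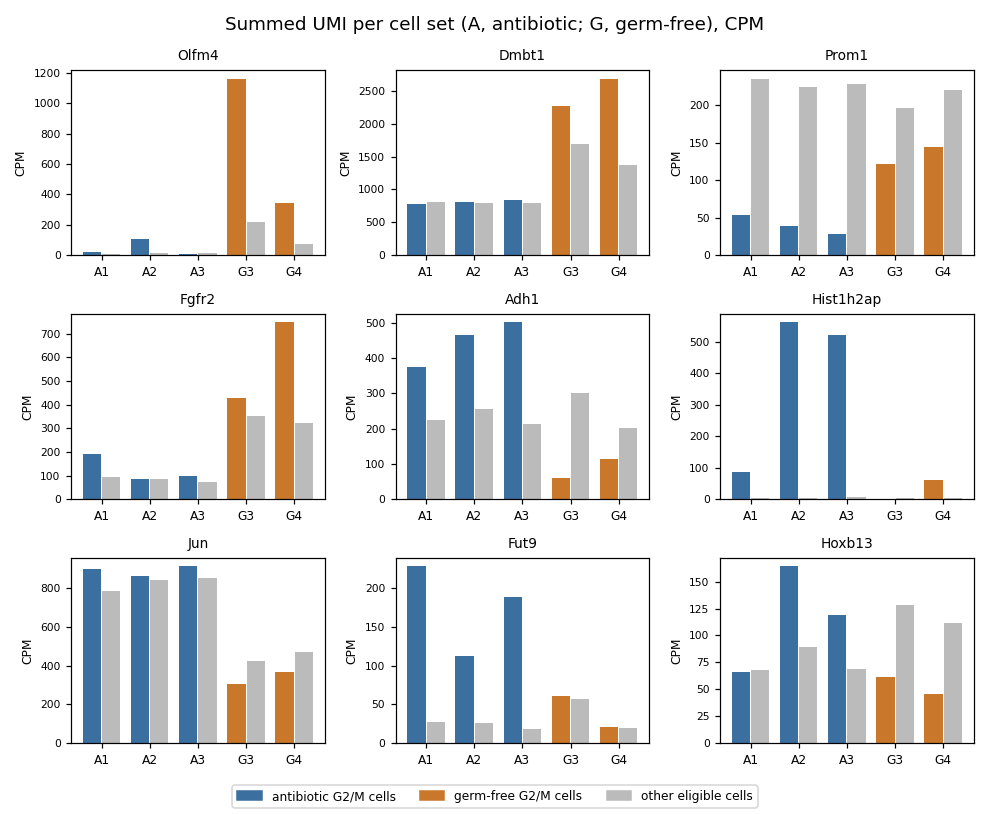
Bars give the CPM of UMI summed over the G2 and mitosis phase cells (blue, antibiotic; orange, germ-free) and over the other eligible cells (grey) of each cell set, A1 to A3 and G3 to G4, for 9 genes. Dmbt1, Fgfr2, Olfm4 and Prom1 stand higher in members of both germ-free sets, and Adh1, Jun, Hist1h2ap, Fut9 and Hoxb13 lower. G3 rests on 6 cells, and no error bars are drawn since each bar is a single sum.

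Other genes on that side rested on few cells. Mptx1, a pentraxin made in the crypt, was at 81.9, 183 and 92.4 CPM in antibiotic sets, while germ-free values were 18540 and 202 CPM in sets 3 and 4. A single cell gave 83.9% of its germ-free UMI, and without set 3 it was no longer called. A single cell likewise gave 93.8% of the germ-free UMI of Sval1, 67.4% of Tff3 (a trefoil peptide of goblet cells) and 71.8% of Spink4. All 7 goblet markers lay above their antibiotic level, with a median log2 ratio of 1.52, and 2 of the 5 ranked were called higher, while 4148 of 9662 measured genes lay above. Of the 109 UMI of Muc2, Fcgbp and Zg16 in germ-free members, 52 were in 2 cells just under the rule's limit for these genes. Zg16, which binds bacteria in mucus, was spread more widely, at 65.9 against 191 CPM in 79 and 20 members, but its germ-free set 3 had no UMI and it was not called. The others of the 12 with the largest ratio were Slc8a1, Cyp2c65, Reg3b, Apol10a, Mt2, Gm20528 and 4930422I22Rik.

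On the lower side the largest ratios also included Taco1, a factor for making a subunit of cytochrome oxidase, at 485, 370 and 457 CPM in antibiotic sets and 0 and 56.7 CPM in germ-free sets. It met the limit under all 14 settings, with a log2 ratio of -2.98 in members and -2.15 in the other eligible cells. Il31ra, a cytokine receptor subunit, was at 460 against 107 CPM in members and 514 against 79.2 CPM in other eligible cells. B3gnt7 and B4galnt3, enzymes that extend sugar chains on proteins, were at 237 against 46.9 CPM and 223 against 46.9 CPM in members, and at 94.9 against 88.7 CPM and 102 against 73.4 CPM in other cells. Timp3, Cd55, Gm19951, Gm3054 and B930036N10Rik were also among the 12, the last an antisense gene whose reads cannot be told from its partner's unless strand was used.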

How the data were processed

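Single-cell RNA was measured from a colon epithelial pool of antibiotic-treated mice and one of germ-free mice. The authors deposited natural log values for 32285 genes and 4183 cells. The submitters' processing notes list Cell Ranger 7.0.0, kallisto, bustools and mm10 but give them no role. No source used here states a cell filter or the use of strand. The exponential of each value minus 1 summed to 10000 per cell, and division by a cell's smallest nonzero value gave whole UMI, within 0.01, for 100% of 9481333 nonzero values. No column was left unused (0). Barcode libraries were not analysed here.

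UMI were summed per condition and scaled to CPM. Log2 ratios are of CPM + 1, and they understate changes of low genes. Shares have exact Clopper-Pearson and ratios conditional binomial intervals. With 1 pool per condition no test was run. Named genes are the 7 choosing genes, up to 4 per list by CPM, the 12 largest germ-free to antibiotic ratios each way with sets apart, and the 12 leading genes outside the lists at 50 or more CPM. Others were chosen after their values were seen. A few genes picked this way were left out of the text. Rankings left out genes of ribosomal proteins, of mitochondria and of the Y, and Xist. The members and the 22 gene lists were chosen with earlier results of these data known. The pools' total depth was 36530277 and 3100880 UMI. The ratio calculation was tested on simulated data. Alternatives covered the threshold, thinning, scaling, doublets, mitochondrial share, floors and each cell set left out. Positions are from GENCODE vM21 (mm10). Promoters are from RefSeq on GRCm38.p6. The dense S phase class, the tertiles, the histone group and the removal of shallower barcode copies were added after seeing the data. Intervals used SciPy 1.17.1 and doublets Scrublet in Scanpy 1.11.5, with Python 3.11.15.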

Additional observations from a re-analysis of the deposited data

How the results depend on the processing

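No paired analysis was possible because each condition is 1 pool and no test was run. The cause of the shifts below was not tested. The antibiotic share of G2 and mitosis phase cells (6.44%) was 8.92% with 3 choosing UMI, 4.6% with 8, 2.89% with 5 after thinning, 7.46% without cells over 15% mitochondrial, and 6.17% to 6.93% with a cell set left out. The germ-free share (5.94%) was 8.66%, 3.06% and 1.65% under the first 3 of these, and 3.31% to 7.11% with a set left out. Genes called higher and lower in germ-free members (55 and 102) numbered 12 higher with 8 choosing UMI, 20 and 45 after thinning, 99 and 163 without cells over 15% mitochondrial, 128 and 197 as means of per-cell values, and 209 and 575 with a floor of 20 UMI and 20 CPM. With a set left out they ran from 54 to 673 and from 96 to 577, the highest without germ-free set 4. With 8 choosing UMI, which left a single cell in germ-free set 3, 138 were lower. Without mitochondrial genes in the totals 79 and 106 were called, and with median-of-ratios scaling 50 and 116. Genes above other eligible cells (895) were 312 after thinning, and against S phase cells 366 by UMI and 126 by density, with 241 and 34 lower (459). The share with S phase UMI was 93% and 94.4% with 8 choosing UMI, 56.3% and 58.1% after thinning, and 84.7% to 87.3% and 50% to 89.7% with a set left out. The Wnt and stem log2 ratios were 1.44 and 1.32 with 8 choosing UMI, 1.18 and 1.34 after thinning, and 1.24 to 1.47 and 0.7 to 1.25 with a set left out. The proximal log2 ratio was 0.12 and 0.1, and -0.26 to 0.65 with a set left out. The distal one was -1.09 and -0.21, and -2.91 to -0.58. TTTGAA was found in 39.2% of mitotic promoters before the start alone. Germ-free members gave 298684 UMI, so genes under 10.0 CPM could not be compared there.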

Other observations

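Goblet cells were kept out of the members by the rule, but some of them carried the same RNA. Of the cells over the limit for Muc2, Fcgbp and Zg16, 11 antibiotic and 3 germ-free cells held at least 5 UMI of the choosing genes. In the antibiotic ones Spink4 was at 7991 CPM and Agr2, a disulfide isomerase needed to fold mucin, at 6130 CPM. They were at 3410 and 2804 CPM in the 160 goblet cells with under 5 UMI of the choosing genes. Reg4, a secreted lectin of deep crypt secretory cells, was at 1726 against 573 CPM. Muc2 and Zg16, products of mature goblet cells, ran the other way, at 4692 against 7837 CPM and at 1417 against 6217 CPM. In the 3 germ-free cells Zg16 was at 68.6 CPM, against 18852 CPM in 75 others, and Reg4 at 1612 against 470 CPM. Agr2 ran against the antibiotic cells there, at 1303 against 3436 CPM. Lgr5 had no UMI in these 14 dividing cells. Muc2 and Zg16 were part of the limit that chose these cells, so their levels are a description.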
